A study of Mus musculus with 11 samples.

Results

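Desmosomes join neighbouring keratinocytes, and 10 of the genes that encode them were followed in the gingival epithelium of mice: the desmogleins Dsg1a, Dsg1b, Dsg2 and Dsg3, the desmocollins Dsc1, Dsc2 and Dsc3, and the plaque proteins desmoplakin (Dsp), plakoglobin (Jup) and plakophilin 1 (Pkp1). They were taken by gene name, as the cadherins and main plaque proteins of the junction, and all 10 have values among the 19170 genes measured. The epithelium came from langerin-DTR mice at 8 weeks of age, described as male where the study lists its strains. In these mice the promoter of langerin drives the receptor for diphtheria toxin (DT), so that DT kills cells that express langerin, foremost Langerhans cells, and both groups carry the transgene. PBS was injected into 5 mice and DT into 6 mice on postnatal days 17, 24 and 31. By the age of collection Langerhans cells had returned to the epithelium of the DT mice according to the study, so the comparison concerns an epithelium that had lost these cells early in life rather than one that lacked them when it was sampled. The labels do not say how the mice were distributed over litters or cages, so p-values measure the spread between these mice.

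In a desmosome the desmogleins and desmocollins are cadherins that bind those of the next cell through calcium. Inside the cell their tails hold plakoglobin and the plakophilins, which hold desmoplakin, and desmoplakin ties the junction to keratin filaments. In the epidermis Dsg3, Dsc3 and Dsg2 are known from the lower layers and Dsg1 and Dsc1 from the upper, differentiated layers. The layers named below for these cadherins are those of the epidermis, and layers of the gingival epithelium were not separated here. Dsg1 and Dsg3 are also the targets of the autoantibodies in pemphigus, in which oral epithelial cells come apart, and in mice Dsg1 is encoded by 3 closely related genes, Dsg1a, Dsg1b and Dsg1c.

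An estimated 17509330 to 24325520 reads per mouse lay on genes, from the size of 1 read in the normalized values. The estimate is less certain for PBS 3 and DT 3, where 1 read is worth about 1 normalized count. Values are counts divided by the size factor of each mouse, called normalized counts here. Taking a normalized count as about 1 read, the counting error alone was 4.26% for Dsg2 and under 1% for each of the other 9 genes, so the spread between mice is what limits the comparison. Keratinocyte genes marked the tissue as oral epithelium, with group means of 860483 (PBS) and 919544 (DT) normalized counts for Krt13 and 527767 and 501352 for Krt4. Both are keratins of the oral lining and do not tell gingiva from other oral epithelium. Defining markers of other tissues were near 0, with summed markers of skeletal muscle between 6 and 37 normalized counts and of melanocytes between 7 and 17 in the 11 mice. Endothelial markers summed to 45 to 118. Of the fibroblast markers Dcn, a matrix proteoglycan, was at 994 to 1490, while Col1a1, a fibrillar collagen, was at 34.4 to 103 and Lum and Pdgfra stayed under 10 in each mouse.

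PBS 3 and PBS 5 stood apart from the other mice on the first principal component, at 17.2 and 20.9 against -13 to -11.9 for the other 3 PBS mice and -9.09 to 10.5 for the DT mice. Both had more of the antigen presentation gene Cd74 than the other PBS mice (2251 and 1674 normalized counts, against 830 to 1095). They also had more of the neutrophil gene S100a8 than those mice (983 and 1297, against 222 to 325). The DT mice had 564 to 1169 for Cd74 and 258 to 1691 for S100a8, so S100a8 did not set PBS 3 and PBS 5 apart from the DT mice. Fold changes of desmosome and junction genes, and ratios, that move by over 1.5 times without PBS 3 and PBS 5 are therefore given with and without them. Those of marker genes are given with all mice only. In bulk tissue fewer cells of a type and less RNA per cell cannot be told apart.

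Desmosome transcripts were among the most abundant of the epithelium. Together the 10 genes took 2.32 to 2.94% of the normalized counts of the PBS mice and 2.4 to 2.74% of those of the DT mice, and Dsp alone made up 35.7 to 41% of that sum. Levels of different genes were compared per kilobase of exon, over the union of the annotated exons. On this scale Dsp (20792 ± 2223 normalized counts per kilobase, SD, n = 11) and Pkp1 (18828 ± 1170) led, at ranks 45 and 48 among the 13456 genes that averaged 10 normalized counts or more and had an annotated length. Their ranges over the mice overlapped.

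The next pair per kilobase was Dsg1a (9616 ± 858, SD, n = 11) and Jup (9480 ± 520), which also overlapped each other but not Pkp1 above them. Neither overlapped Dsc2 below, but the lowest Dsg1a value (8156) was under the highest Dsc1 value (8368). Dsc2 (7116 ± 388) and Dsc1 (6976 ± 844) followed with overlapping ranges. Dsg1b stood alone at 4033 ± 350 per kilobase. Dsc3 (2234 ± 123) and Dsg3 (2119 ± 145) overlapped, and both were measured below Dsg1a, Dsg1b and Dsc1 in this whole epithelium. Dsg2 was far lower, at 66.6 ± 3.52 per kilobase and rank 7459, and the third Dsg1 gene, Dsg1c, which is not among the 10, was lower still at 20.5 ± 2.4. These levels presume reads spread along the whole transcript, and for the Dsg1 genes they are uncertain, because 35% of the 50-base windows of Dsg1a, 48.4% of those of Dsg1b and 29% of those of Dsg1c occur in another desmoglein.

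**Figure D1:**
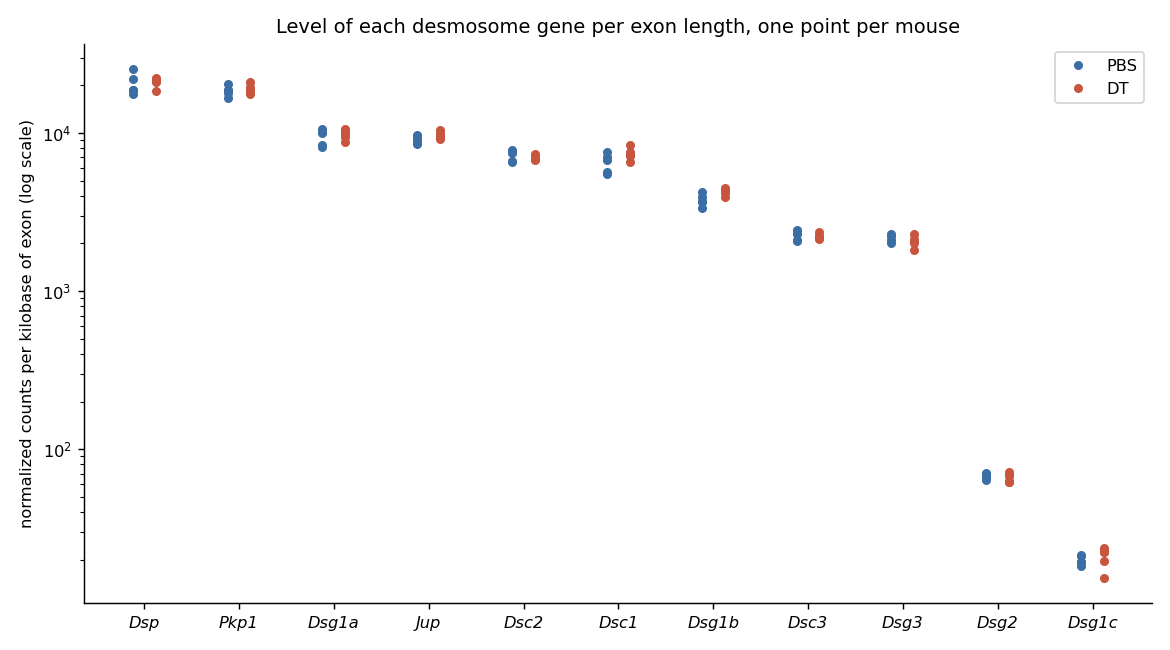
Normalized counts per kilobase of exon on a log axis, with 1 point per mouse (blue PBS, red DT), for the 10 desmosome genes and Dsg1c. The genes fall in order from Dsp (mean 20792) to Dsg1c (mean 20.5), and the points of the 2 groups lie on each other for each gene.

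No member passed the test between DT and PBS mice: 0 of 10 had an adjusted p under 0.1 in limma on log2(normalized count + 1), against 0.558% of all 19170 genes. At an unadjusted p under 0.05 there was 1 member, Dsg1b, against 11.5% of all genes. The ranges of the 2 groups overlapped for each of the 10, where 2.11% of the genes averaging 10 normalized counts or more had groups that did not overlap. The log2 fold changes (DT minus PBS) lay between -0.08 and 0.19 with a median of 0.049, beside -0.011 for all genes, and 6 of 10 were positive. In the plot by mouse the SD of the PBS mice was 4.39% (Dsg2) to 15.3% (Dsp) of the mean. For the DT mice it was 2.66% (Dsc2) to 8.04% (Dsc1).

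**Figure D2:**
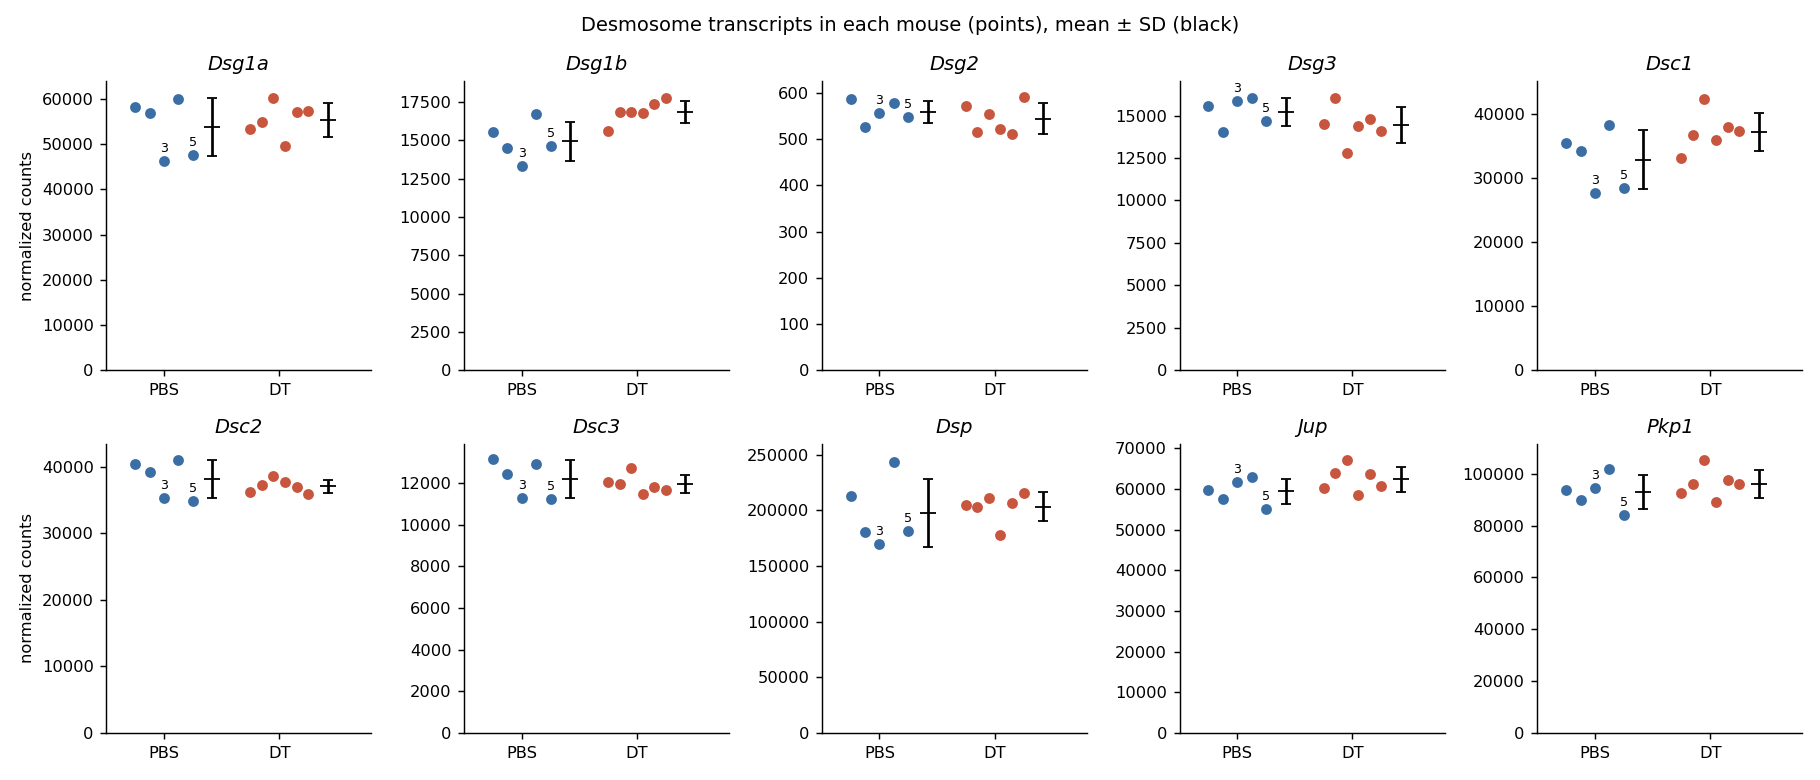
Normalized counts for each of the 10 genes, with 1 point per mouse (blue PBS, red DT), the mean and SD in black, and PBS 3 and PBS 5 numbered. The axes start at 0, and the ranges of PBS and DT mice overlap for each gene. PBS 3 and PBS 5 are the lowest PBS mice for Dsg1a, Dsc1, Dsc2 and Dsc3.

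The cadherin genes lie in 1 cluster on chromosome 18 of GRCm38, between positions 19960930 and 20604521, with the desmocollins at one end and the desmogleins at the other. Of them Dsg1b, a desmoglein of the upper layers, had the smallest p. The PBS mice had 15537, 14498, 13299, 16689 and 14632 normalized counts (PBS 1 to PBS 5), and the DT mice a lowest value of 15604, a median of 16853 and a highest of 17750. Each DT mouse was above the PBS mean and 5 of 6 were above each PBS mouse, with PBS 4 alone reaching into the DT range. The log2 fold change was 0.18 ± 0.061 (SE, 95% interval 0.051 to 0.31), with an unadjusted p of 0.0093 and an adjusted p of 0.263 from limma. It stayed short of the threshold in each of 22 other settings, with 0.117 as the lowest adjusted p (limma without PBS 4) and 0.671 as the highest. Since 45.5% of its 50-base windows also occur in Dsg1a, its reads cannot be fully told apart from those of its neighbour.

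Dsg1a, its more abundant neighbour, had 58303, 56908, 46375, 59969 and 47517 normalized counts in the PBS mice. The DT mice ran from 49608 over a median of 55993 to 60237. PBS 3 and PBS 5 were below each DT mouse, and the other 3 PBS mice lay within the upper part of the DT range. The log2 fold change was 0.047 ± 0.084 (SE, 95% interval -0.13 to 0.22), and without PBS 3 and PBS 5 it was -0.079 ± 0.068 (adjusted p = 0.548 from limma).

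Dsg3, the desmoglein of the lower layers, had 15539, 14013, 15829, 16006 and 14691 normalized counts after PBS and 12765 to 16045 after DT, with a median of 14416. DT 3 had the lowest value of the 11 mice and 5 of 6 DT mice were below the PBS mean. Its log2 fold change was -0.079 ± 0.061 (SE, 95% interval -0.21 to 0.051), with an adjusted p of 0.663 from limma.

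Dsg2, which is most at home in simple epithelia, was at 586, 526, 556, 579 and 547 normalized counts after PBS and at 511 to 592 after DT, with a median of 539. The values of the DT mice enclosed those of the PBS mice. Its log2 fold change was -0.038 ± 0.058 (SE, 95% interval -0.16 to 0.085).

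Among the desmocollins Dsc1, the one of the upper layers, had the highest log2 fold change of the 10 genes. The PBS mice had 35424, 34189, 27664, 38311 and 28462 normalized counts, and the DT mice 33080 to 42216 with a median of 36936. Each DT mouse was above the PBS mean, but only DT 3 was above each PBS mouse. The log2 fold change was 0.19 ± 0.089 (SE, 95% interval -4.3e-04 to 0.38), with an unadjusted p of 0.05 and an adjusted p of 0.436 from limma. This value rests on PBS 3 and PBS 5, the lowest PBS mice for Dsc1: without both it was 0.045 ± 0.072 (adjusted p = 0.776 from limma).

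Dsc2, the most widely expressed desmocollin, had 40330, 39234, 35283, 41042 and 34785 normalized counts after PBS and 35830 to 38588 after DT, with a median of 37053. The DT mice lay in the gap between PBS 3 and PBS 5 below and the other 3 PBS mice above, with none outside the PBS range. The log2 fold change was -0.038 ± 0.062 (SE), and without PBS 3 and PBS 5 it was -0.12 ± 0.054 with an unadjusted p of 0.045 and an adjusted p of 0.219 from limma.

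Dsc3, the desmocollin of the lower layers, lay much the same way. It had 13140, 12444, 11298, 12933 and 11229 normalized counts after PBS and 11474 to 12748 after DT, with a median of 11895. PBS 3 and PBS 5 were below each DT mouse, and DT 3 was the one DT mouse above the lowest of the other 3 PBS mice. The log2 fold change was -0.028 ± 0.055 (SE, 95% interval -0.15 to 0.089). Without PBS 3 and PBS 5 it was -0.10 ± 0.049, with an unadjusted p of 0.051.

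**Figure D3:**
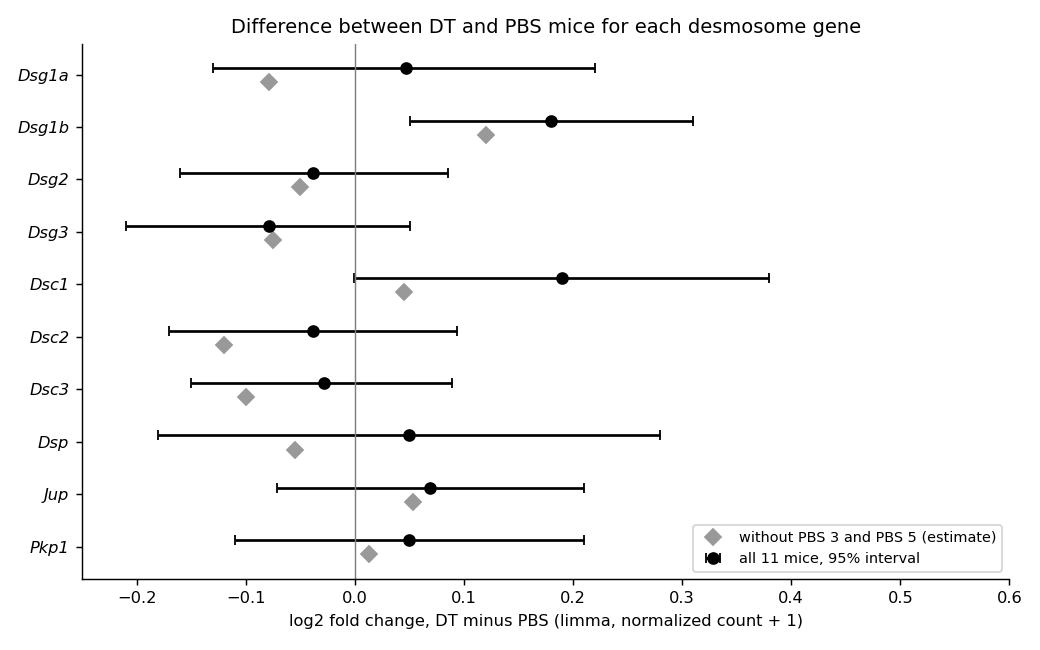
Log2 fold change (DT minus PBS) of each gene from limma with its 95% interval (black, 11 mice), and the estimate without PBS 3 and PBS 5 (grey). The intervals of Dsg1b (0.051 to 0.31) and Dsc1 (-4.3e-04 to 0.38) reach highest, and leaving out the 2 mice lowers 9 of the 10 estimates.

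With PBS 3 and PBS 5 both left out, a choice made after seeing the data, 10.3% of all genes were past the threshold and again 0 of 10 desmosome genes. The smallest adjusted p among them was then 0.219, for Dsc2, and Dsg1b had a log2 fold change of 0.12 ± 0.057 (adjusted p = 0.253 from limma). Dsg1a and Dsp had positive estimates with all mice and negative ones without these 2.

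Desmoplakin, the plakin that anchors keratin filaments, had 213093, 180629, 169913, 243790 and 181719 normalized counts in the PBS mice and 178309 to 215311 in the DT mice, with a median of 205766. The PBS mice enclosed the DT mice, with PBS 4 highest and PBS 3 lowest. Its log2 fold change of 0.05 ± 0.11 (SE, 95% interval -0.18 to 0.28) has the widest interval of the 10 genes, and it was -0.055 ± 0.1 without PBS 3 and PBS 5. DT 4, at 178309, was the lowest DT mouse and the other 5 were at 203515 or more.

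Plakoglobin, which also serves in adherens junctions, had 59784, 57637, 61763, 62845 and 55066 normalized counts after PBS. The DT mice ran from 58569 to 67139 with a median of 62143, and 3 of 6 were above each PBS mouse. Its log2 fold change was 0.069 ± 0.066 (SE, 95% interval -0.071 to 0.21), with an adjusted p of 0.738 from limma.

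Plakophilin 1, the main plakophilin of the upper layers, had 93772, 89950, 94588, 101861 and 84086 normalized counts after PBS and 89108 to 105193 after DT, with a median of 95911. Only DT 3 was above each PBS mouse and none was below the PBS range. The log2 fold change was 0.05 ± 0.076 (SE, 95% interval -0.11 to 0.21), and without PBS 3 and PBS 5 it was 0.013 ± 0.074.

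The promoters of the 2 plaque genes that RefSeq covers here (2 of the 10 matched, build GRCm38.p6) are shown as a description. They were searched for GC boxes and for the letters bound by AP-1 factors such as Fos. Each promoter runs from 250 bases before to 50 bases after the gene start in RefSeq, which for Jup is not the start of the annotation used for positions here, and is read on the strand of the gene. The capitals mark GC boxes (GGGCGG, or CCGCCC on the other strand), to which Sp factors bind.

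Dsp, chr13:38151044-38151343, plus strand: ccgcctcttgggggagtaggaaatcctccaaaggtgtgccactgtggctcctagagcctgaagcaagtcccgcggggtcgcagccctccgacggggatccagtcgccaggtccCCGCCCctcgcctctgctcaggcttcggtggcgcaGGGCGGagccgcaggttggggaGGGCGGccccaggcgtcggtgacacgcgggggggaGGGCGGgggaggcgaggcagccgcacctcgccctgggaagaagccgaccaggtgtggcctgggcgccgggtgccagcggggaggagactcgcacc
Jup, chr11:100397741-100398040, minus strand: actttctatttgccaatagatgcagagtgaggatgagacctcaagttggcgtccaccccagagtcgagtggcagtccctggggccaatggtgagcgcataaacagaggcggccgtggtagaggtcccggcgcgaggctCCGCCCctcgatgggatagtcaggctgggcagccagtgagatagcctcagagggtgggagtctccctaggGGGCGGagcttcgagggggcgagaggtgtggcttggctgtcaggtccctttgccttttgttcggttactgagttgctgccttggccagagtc

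Both windows are rich in G and C, at 73% for Dsp and 60.7% for Jup. Dsp held 4 GC boxes and Jup 2, and 35.7% of the 32851 promoters in the table hold at least 1. The AP-1 letters TGANTCA, which read the same on both strands, matched in neither window, and 7.81% of all promoters hold them. A match in letters, or its absence, is a description of the window only, and whether AP-1 factors act on these genes was not tested.

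The balance of the genes within a mouse was compared through 7 ratios, which cancel the scaling of each library. They are ratios of normalized counts that are not corrected for length, so only their differences between mice are read. Two-sided exact permutation tests over all 462 arrangements of the mice were adjusted over the 7 ratios, and 0 of 7 passed a threshold of 0.05.

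The log2 ratio of Dsc1 to Dsc3, the desmocollin of the upper layers against that of the lower, came closest. It was 1.43, 1.46, 1.29, 1.57 and 1.34 in the PBS mice and 1.46 to 1.73 with a median of 1.66 in the DT mice. Only DT 1 lay inside the PBS range, and the other 5 DT mice were above each PBS mouse. The means were 1.42 ± 0.11 and 1.63 ± 0.095 (SD, n = 5 and 6), and the difference of 0.22 had an exact permutation p of 0.0108, adjusted 0.0758. Without PBS 3 and PBS 5 the difference was 0.15 with an adjusted p of 0.25 by the same exact test.

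The share of Dsg1b in the sum of Dsg1a and Dsg1b was 21, 20.3, 22.3, 21.8 and 23.5% after PBS and 21.8 to 25.3% after DT, with a median of 23.4%. The groups overlapped, and the means of 21.8 ± 1.2% and 23.4 ± 1.2% (SD, n = 5 and 6) differed by 1.59 percentage points (exact permutation p = 0.0563, adjusted 0.197). Without PBS 3 and PBS 5 the difference grew to 2.3 percentage points (adjusted p = 0.0833 by the same exact test). The log2 ratio of Dsg1a plus Dsg1b to Dsg3, the desmoglein counterpart of Dsc1 to Dsc3, was 2.17 ± 0.17 after PBS and 2.33 ± 0.16 after DT (exact permutation p = 0.162, adjusted 0.379, n = 5 and 6). PBS 3, at 1.91, had the lowest value of it, and the difference of 0.16 was 0.092 without PBS 3 and 0.04 without PBS 3 and PBS 5.

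The other 4 ratios differed by less than the spread between mice. The log2 ratio of Dsc2 to Dsc3 was the steadiest, at 1.64 ± 0.019 after PBS and 1.63 ± 0.044 after DT (exact permutation p = 0.69, n = 5 and 6). Those of Jup to Dsp (exact permutation p = 0.831) and Pkp1 to Dsp (p = 0.994) had means of -1.72 and -1.08 after PBS and -1.70 and -1.08 after DT. Without PBS 3 and PBS 5 their differences were 0.11 and 0.068 (adjusted p = 0.5 and 0.562 by the same exact test). That of Dsg2 to Dsg3 was -4.77 ± 0.043 after PBS and -4.73 ± 0.17 after DT (exact permutation p = 0.613, n = 5 and 6), with the larger SD after DT, and its difference went from 0.041 to 0.025 without PBS 3 and PBS 5.

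**Figure D4:**
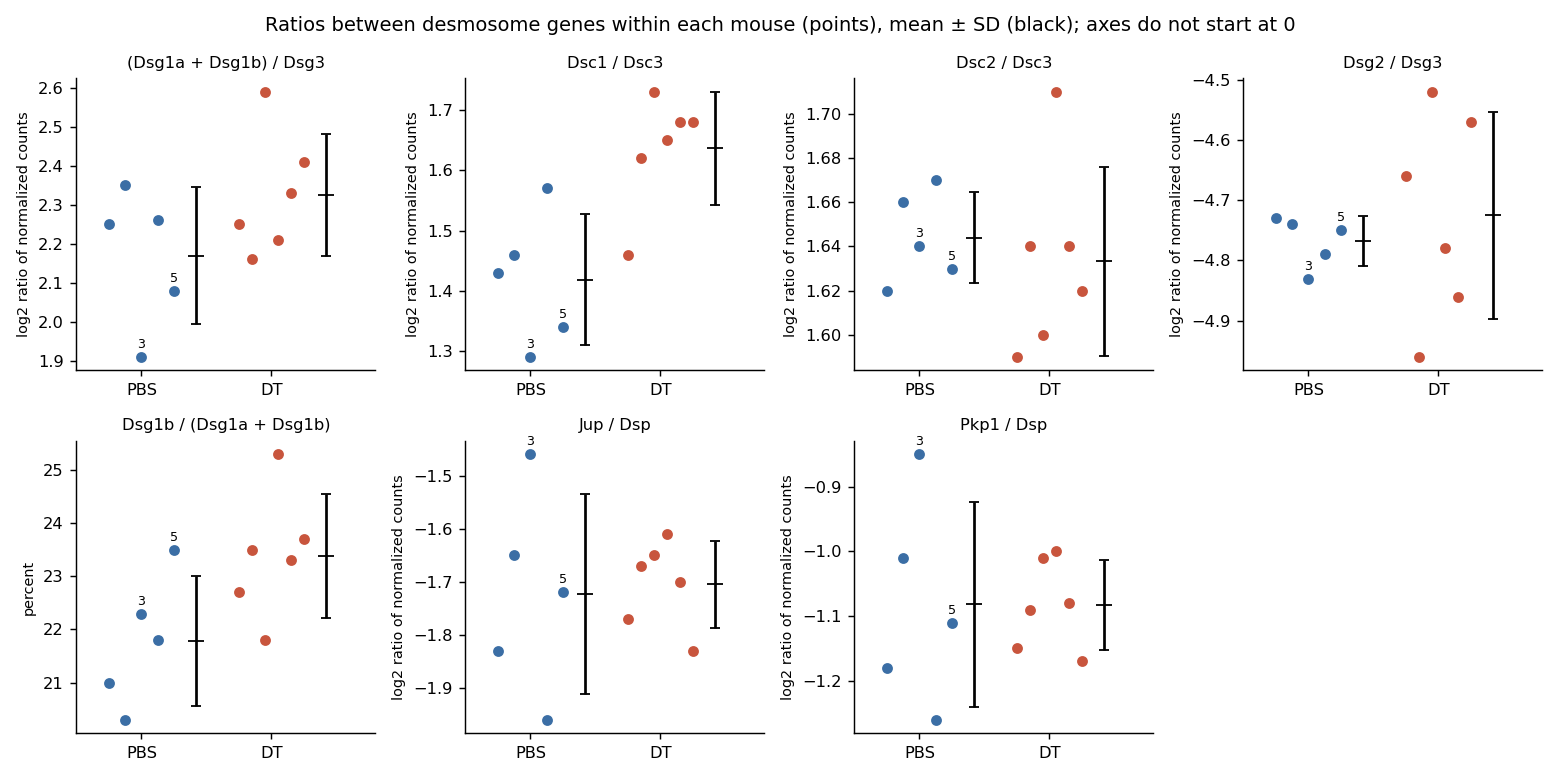
The 7 ratios within each mouse, with 1 point per mouse (blue PBS, red DT), mean and SD in black, and PBS 3 and PBS 5 numbered. The axes do not start at 0. For Dsc1 to Dsc3 the DT mice sit between 1.46 and 1.73 and the PBS mice between 1.29 and 1.57.

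Some desmosome genes varied together from mouse to mouse within the groups. With each group centred on its mean, the Pearson correlation over the 11 mice had a median of 0.53 over the 45 pairs of genes, and 25 pairs were above 0.5. Jup and Pkp1, neighbours in the plaque, formed the closest pair at 0.95, and stayed at 0.95 in the 9 mice without PBS 3 and PBS 5. Dsg1a with Dsc1 was at 0.92, Dsc1 with Dsc2 at 0.91, and Dsc3 with Dsg1a and with Dsc2 at 0.90. Part of this followed PBS 3 and PBS 5, the lowest PBS mice for Dsg1a, Dsc1, Dsc2 and Dsc3. Without them each pair among these genes was lower, between 0.24 (Dsg1a with Dsc2, from 0.81) and 0.75 (Dsg1a with Dsc1). Dsg3 stood outside, with -0.19 against Dsc1 and -0.17 against Dsg1a. These are descriptions over mice that share their library across genes, and no test was made of them. The same correlations were not computed for pairs of other genes, so they are not read as particular to the desmosome.

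**Figure D5:**
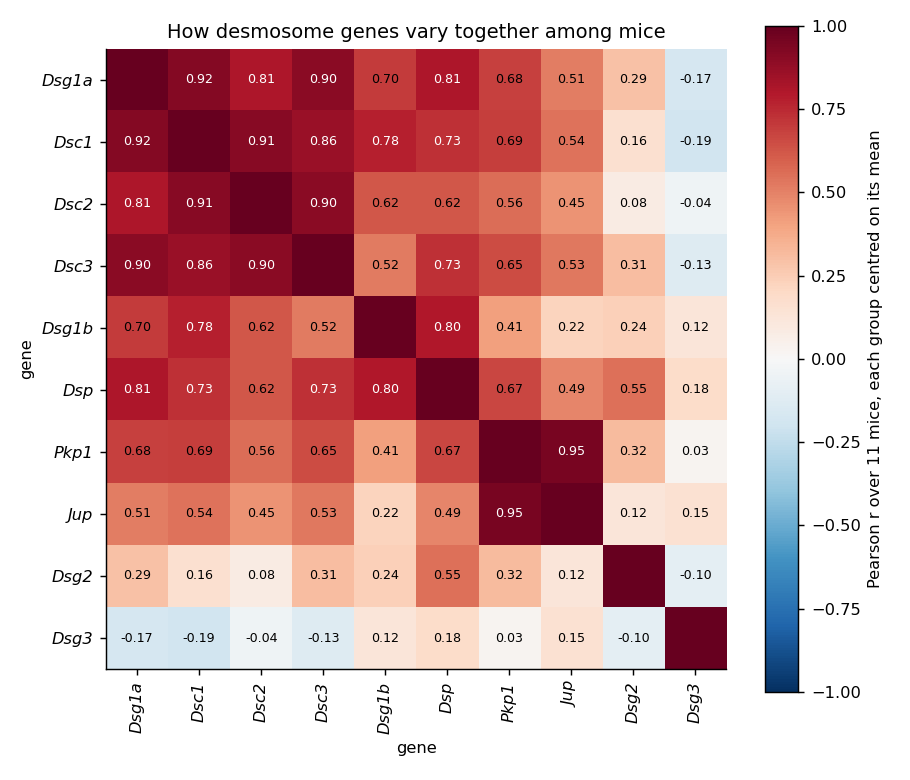
Pearson correlation of log2 values over 11 mice, each group centred on its mean, for each pair of the 10 genes (red positive, blue negative). A block of Dsg1a, Dsc1, Dsc2 and Dsc3 with values of 0.81 to 0.92 and the pair of Pkp1 and Jup at 0.95 stand out, and Dsg3 is near 0 with the rest. Without PBS 3 and PBS 5, which is not drawn, the values of the block were 0.24 to 0.75.

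Among 10009 other genes that averaged 100 normalized counts or more, the 5 whose values followed the mean of the desmosome genes most closely were Foxo3, a forkhead transcription factor, Prr12, Tacc2, a centrosome protein, Tmem131l and Dcp1a, an mRNA decapping factor. Each had a Pearson r of 0.96 over the 11 mice, and 0.90 to 0.94 without PBS 3 and PBS 5. Their own adjusted p between DT and PBS lay between 0.318 and 0.813 in limma.

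The rest of the desmosome and its surroundings was read through 4 lists with 40 measured genes (Dsg4, the desmoglein of hair, is listed without a value). Of these 0 passed the threshold, and 4 of 40 had an unadjusted p under 0.05 in limma, near the 11.5% of all genes. Without PBS 3 and PBS 5, 2 of 40 passed, where 10.3% of all genes did. The median log2 fold change of the 40 genes was 0.044. Among 9 other desmosome components Cdsn, the corneodesmosin of the outermost layers, was at 28573 to 35168 normalized counts after PBS and 34107 to 39612 after DT, and its log2 fold change was 0.21 ± 0.071 (adjusted p = 0.257 from limma). Cdsn was 1 of the 2 that passed without PBS 3 and PBS 5 (0.29, adjusted p = 0.0277). Perp, a membrane protein of desmosomes, had 82092 and 88556 normalized counts as group means (0.11 ± 0.068), and Pkp2, the plakophilin of simple epithelia and heart, was near 0 at 17.2 and 13.1.

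Of the 10 genes of adherens junctions Ctnnd1, the p120 catenin, had the smallest p, with group means of 1232 and 1088 normalized counts (log2 fold change -0.17 ± 0.061, adjusted p = 0.286 from limma). Nectin2, a nectin, was at -0.20 ± 0.12, and at -0.0098 without PBS 3 and PBS 5. Cdh3, P-cadherin, was at 0.093 ± 0.066. Among the 10 keratins Krt15, a keratin of basal cells, had means of 9888 after PBS and 11825 after DT (0.26 ± 0.077, adjusted p = 0.213). Krt15 was past the threshold without PBS 4 (0.31, adjusted p = 0.0908 from limma), and was at 0.16 both without PBS 3 and PBS 5 (adjusted p = 0.2) and after quantile normalization (adjusted p = 0.541). Krt10, of the upper layers, was at 0.20 ± 0.14 and Krt5, of the basal layer, at 0.092 ± 0.07.

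The 11 regulators of desmosome adhesion included proteases that cut the cadherins and their inhibitors. Spink5, an inhibitor of kallikreins, had 29618 to 38980 normalized counts after PBS and 37055 to 39146 after DT (log2 fold change 0.15 ± 0.07, adjusted p = 0.412 from limma). Its log2 fold change was 0.098 without PBS 3 and 0.051 without PBS 3 and PBS 5 (adjusted p = 0.65). Klk7, a kallikrein that cleaves corneodesmosin, was at 0.11 ± 0.085 with all mice and was the other gene that passed without PBS 3 and PBS 5 (0.27, adjusted p = 0.0172). Adam10, a sheddase, was at 0.077 ± 0.042.

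Immediate early genes respond quickly to growth factors, injury and tissue handling, and in the same libraries they differed between the groups. Each of the 8 on the list was higher on average after DT. Of them 7 had an adjusted p under 0.1 from limma, against 0.558% of all genes. Fos was at 2282 to 9475 normalized counts after PBS and 10882 to 17819 after DT (log2 fold change 1.70 ± 0.26, adjusted p = 0.00897 from limma). The summed level of the list was 21606 to 56971 normalized counts after PBS and 60052 to 96990 after DT, without overlap. Whether treatment or handling set these genes apart was not tested, nor was their part in the values of Dsg1b and Dsc1. Markers of Langerhans cells did not pass the test (0 of 5, log2 fold changes from -0.53 to -0.11 with all mice). Cd207, which encodes langerin, was at 10 to 43 normalized counts after PBS and 15.8 to 21.6 after DT. PBS 3 and PBS 5 had the highest values of all mice for each of the 5 markers, so these negative estimates lean on them. Epcam, 1 of the 5, is also a keratinocyte marker. Leukocyte markers summed to 368 to 1451 after PBS and 324 to 1769 after DT, and most of the sum was S100a8. The 5 markers did not move together, and 2 had positive estimates. S100a8 had a log2 fold change of 0.60 ± 0.46 with all mice, PBS 3 and PBS 5 being its highest PBS mice. Ptprc, the CD45 gene of leukocytes, was at -0.62 ± 0.23 (unadjusted p = 0.017, adjusted p = 0.307 from limma). PBS 3 and PBS 5 had the highest Ptprc values of all mice (92.5 and 75.5 normalized counts), so this estimate also leans on them. The part of leukocytes in the lower desmocollins of PBS 3 and PBS 5 was not tested.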

How the data were processed

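Gingival epithelium of 5 PBS and 6 DT mice was sequenced as poly-A selected, stranded mRNA. According to the methods of the study, the authors trimmed reads after a guide for 3' end libraries, aligned them with TopHat 2.1.1 to GRCm38, counted them with htseq-count, dropped genes whose counts summed to less than 10 and divided by DESeq2 size factors, while the submitters' processing notes name GRCm39 and DESeq2 1.36.0. The deposited values are thus normalized counts, for 19170 of 55414 genes listed. Log2(normalized count + 1) was tested with limma 3.58.1 (intensity trend, R 4.3.3) and called at 0.1 after Benjamini-Hochberg adjustment over all 19170 genes. Ratios were tested with exact permutation tests (smallest p 0.00216). Intervals are 95% intervals of limma. The procedure was tested on simulated data. Exon lengths came from GENCODE on GRCm38, a later release than the authors used.

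The members and lists were chosen with earlier results of these data known. Named genes were the 10 members, of each list those past the threshold or else the 3 with the smallest p (Krt5 and Cdh3 included), the 5 genes most like the members' mean, and markers. Alternatives were other pseudocounts (0.5 and 5), a filter at a mean of 10, TMM scaling, quantile normalization, array weights, a length and GC correction, blocks on replicate numbers, and leaving out mice.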

Additional observations from a re-analysis of the deposited data

Results flagged for a closer look

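Dsp in DT 4 stood apart from its group, at 178309 normalized counts against 203515 to 215311 in the other 5 DT mice. It was 1 of 58 sets of values examined in this way (the desmosome genes, the named junction genes and the ratios, in each group), and chance flags about 1 in 20. The PBS mice for the same gene ran from 169913 to 243790, so the value lies inside the range of the controls.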

How the results depend on the processing

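None of the 10 desmosome genes passed the threshold in any of 22 other settings, and 5 of 220 estimates changed sign. Leaving out single mice moved Dsg1a between -0.0043 (without PBS 3) and 0.088 and Dsp between -0.0017 (without PBS 3) and 0.13 (log2). Without PBS 3 and PBS 5, chosen after seeing the data, they were -0.079 and -0.055. Quantile normalization moved Jup from 0.069 to 0.23, Pkp1 from 0.05 to 0.16, Dsg1a from 0.047 to 0.11, Dsp from 0.05 to 0.076, Dsc3 from -0.028 to -0.12, Dsg3 from -0.079 to -0.15 and Dsg1b from 0.18 to 0.1, and Dsg3, Jup and Pkp1, in place of Dsg1b, then had an unadjusted p under 0.05. Dsc3 was 0.0045 with a replicate block by title number and the length and GC correction together. The log2 ratio of Pkp1 to Dsp differed by 0.028 between medians, by 0.068 without PBS 3 and PBS 5, and by -0.045 to 0.059 without single mice, and that of Jup to Dsp by -0.038 to 0.086 without single mice, around differences of -1.9e-04 and 0.02. The log2 ratio of Dsg1a plus Dsg1b to Dsg3 differed by 0.043 between medians, against 0.16 between means.

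Over all genes the count past the threshold was 107, and 189 with array weights, 168 with the length and GC correction, 1967 without PBS 3 and PBS 5, and between 27 (without DT 5) and 259 (without PBS 5) when single mice were left out, with each mouse but PBS 3 and DT 2 moving it by over 1.5 times. Of the 40 listed genes it was 0 to 1 (Krt15, without PBS 4) without single mice and 2 (Cdsn and Klk7) without PBS 3 and PBS 5. A replicate block by title number gave 35 genes, and 38 with the length and GC correction. A block by library number gave 0 in limma, with 1404 genes at an unadjusted p under 0.05. Mice with the same number did not deviate together in a steady way (correlations from -0.233 to 0.324), so the numbers were not used as pairs in the main test. So few correlations cannot exclude that some of these mice shared a litter or cage. The planned tests with edgeR and with DESeq2 were not run, because whole reads could not be established for PBS 3 and DT 3, where 1 read is worth about 1 normalized count. With 5 and 6 mice the intervals of the members allow changes of up to 1.30-fold (Dsc1), and Dsg1a and Dsg1b share sequence.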
